A study of Mus musculus with 30 samples.

Results

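Brain messenger RNA of wild-type mice at 12 months of age was compared with that of wild-type mice at 45 days. The comparison used the 5 samples labelled wild type at 12 months and the 5 labelled wild type at 45 days, 10 of the 30 samples of the series. The samples were taken by their labels, and the comparison was chosen with earlier results of these data known. The series also holds wild type at 24 months and mice labelled Csa-/- at the same 3 ages. Csa is another name of Ercc8, a gene whose product acts in repair of transcribed DNA and is lost in a form of Cockayne syndrome. Both groups are labelled wild type, and the labels name no agent other than the overdose of xylazine and ketamine used for euthanasia. The animals lived under a cycle of 12 hours of light and 12 of dark, and the whole brain was frozen, pulverised and extracted with TRIzol. Poly(A) RNA was sequenced on a SOLiD instrument. The strain, the number of animals behind each library and the time of day of collection were not given in the sources used here.

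The labels state that every sample was sequenced 5 times, and the counts behaved that way. Across genes, the chi-square between the 5 samples of a group, divided by its degrees of freedom, had a median of 0.985 at 45 days and 0.995 at 12 months. In 10% and 10.8% of genes that chi-square had a p under 0.05, above the share of 0.05 that counting error alone gives. The coefficient of variation between runs was 0.0249 and 0.0274. The 5 runs of each group were therefore summed to 1 library, with 21155348 counts at 45 days and 19648751 at 12 months (3528145 to 4641173 counts in a run). Levels are given as CPM, counts relative to the size of the library, after TMM scaling, which equalises libraries on the bulk of their genes. With 1 library per age there is no test of age: each fold compares 2 libraries, its 95% exact interval covers counting error only, and differences between animals are not in it. A gene was called higher or lower if its larger level was 5 CPM or more and its whole interval lay beyond 1.5-fold. Where the runs of a called gene do not overlap, this largely follows from the call on their sum and adds no replicate.

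The adult brain differs from the juvenile brain in known ways. Oligodendrocytes wrap axons in myelin, made mostly of a few proteins such as myelin basic protein, and the synthesis of these is most active in young animals. Immediate early genes are switched on within minutes by neuronal firing and encode transcription factors and synaptic proteins. The circadian clock is a loop in which CLOCK and BMAL1 drive the Per and Cry genes through E-box sequences, and the PER and CRY proteins then repress that drive.

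Both libraries held high levels of brain genes, such as Camk2a of excitatory neurons at 1740 and 2180 CPM, Slc1a2 of astrocytes at 1550 and 2170 CPM and Mbp of oligodendrocytes at 5930 and 3900 CPM. The Y-linked gene Ddx3y was at 86.7 CPM at 45 days and 108 CPM at 12 months, and Xist at 0.38 and 0.32 CPM. Ercc8, the gene named in the genotype labels, was at 13.5 and 11.3 CPM (0.835 of the 45-day level, interval 0.696 to 1.0), and was not called. It was at 13.9, 13.1 and 13.4 CPM in the 3 libraries labelled Csa-/-, so its level did not separate the genotypes, and whether the counted part lies in the deleted stretch was not given. Results from those libraries below are results of the libraries labelled Csa-/-.

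Of 12301 genes with at least 5 CPM in 1 of the wild-type libraries, 671 were called (5.45%). At 12 months 264 genes were higher (2.15%) and 407 were lower (3.31%). Of the 12301, 6379 had a fold above 1 and 5922 had a fold below 1. These shares over all genes are the background of the counts for each gene list below. Most differences were modest: 185 of the higher and 214 of the lower genes lay between 1.5-fold and 2-fold. Only 2 higher and 11 lower genes reached 4-fold. When the libraries were scaled by their totals instead of by TMM, 190 genes were higher and 539 lower, so 26.1% of the calls were higher against 39.3% under TMM. The genes called lower were shorter and richer in GC than the rest, with a median exonic length of 2846 bases against 4815 for all genes and 54.9% GC against 49.7%. Genes called higher had a median GC content of 44.0%. With each library's trend along length and GC removed, 191 genes were called higher and 255 lower, and 118 of the 264 and 212 of the 407 were among them. In RNA from a whole brain, fewer cells of a type and less RNA per cell cannot be told apart.

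The 10 largest higher calls, leaving out models known only by an identifier, were Egr2, Abca8a, Frmd7, Nr4a1, Egr1, Junb, Sp8, Fosb, Npsr1 and Nr4a3, of which 6 are immediate early genes. Abca8a, a transporter of the ATP-binding cassette family (chr11:110025634-110095978, minus strand, mm10), was at 7.57, 8.54, 5.35, 4.97 and 8.35 CPM in the runs at 45 days and at 28.9, 39.5, 35.7, 32.1 and 35.5 CPM in those at 12 months. All 12-month runs were above all 45-day runs, and the summed libraries differed 4.89-fold (interval 4.09 to 5.9). It stayed at 30.4 CPM at 24 months. Frmd7, a protein with a FERM domain, was 3.63-fold higher (2.64 to 5.05), Sp8, a transcription factor of forebrain interneurons, 3.16-fold (2.31 to 4.38), and Npsr1, the receptor of neuropeptide S, 3.01-fold (2.09 to 4.42), all from 45-day levels below 3 CPM.

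The list of immediate early genes and the other lists below were written with earlier results of these data known, or after the data were seen. Their counts and medians are therefore descriptions only. Immediate early genes were higher as a group at 12 months. Of 23 listed, 21 reached 5 CPM, and 14 were called higher and 0 lower, against 2.15% and 3.31% over all genes. The median log2 fold was 1.07 against 0.02 for all genes. Their summed level was 667 CPM at 45 days, 1540 CPM at 12 months and 873 CPM at 24 months, so the 12-month library was the highest of the 3 wild-type libraries. The plot of immediate early and clock genes by run shows each measured member.

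**Figure D1:**
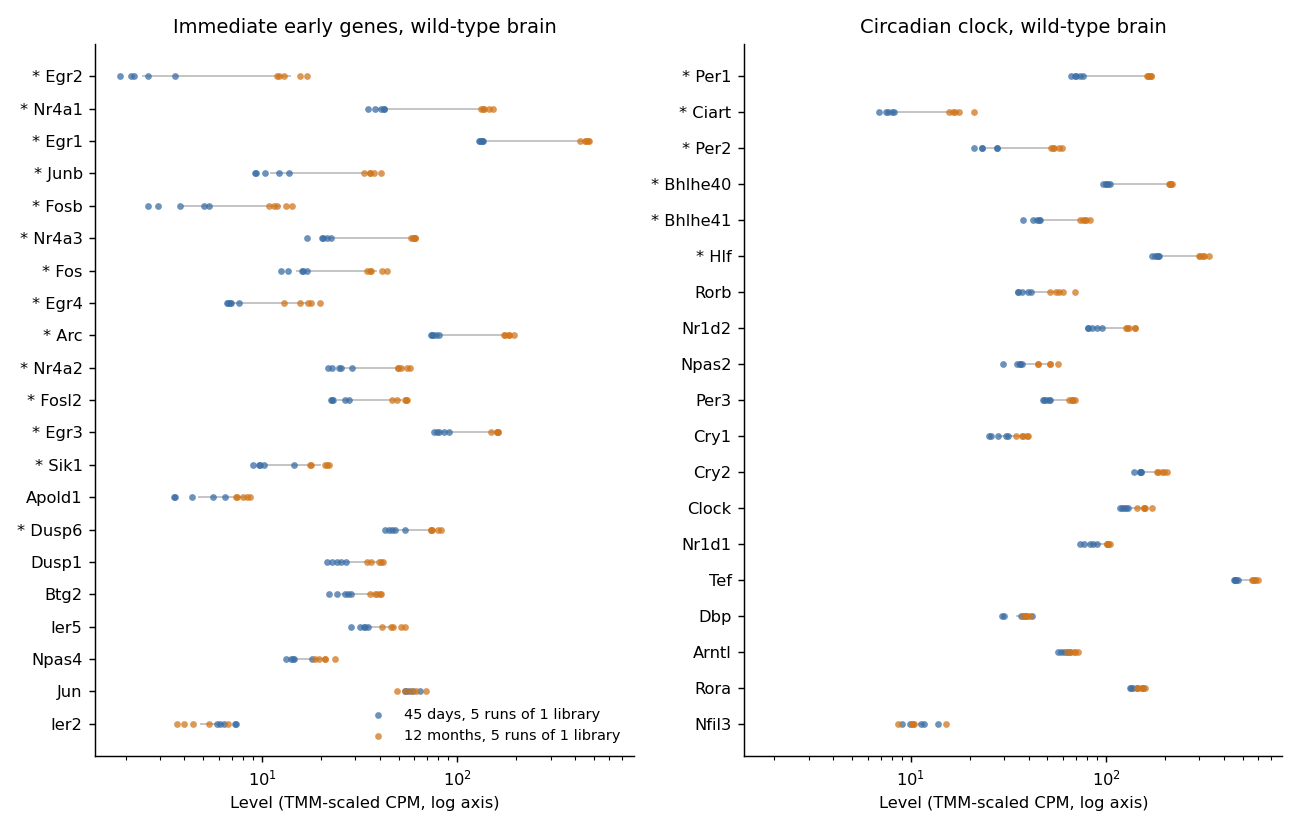
Levels (TMM-scaled CPM, log axis) of the immediate early genes and circadian clock genes with at least 5 CPM in wild-type brain, ordered by fold; each point is 1 of 5 runs of the single library at 45 days (blue) or 12 months (orange), grey lines join the summed libraries and asterisks mark called genes. In the 14 called immediate early genes and 6 called clock genes the orange points lie to the right of the blue points, which largely follows from the call on the summed runs. The points of Jun, at 57.7 and 58.6 CPM, overlap.

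Among the transcription factors of the group, Egr2 (chr10:67535475-67542188, plus strand) was at 2.6, 1.87, 3.57, 2.13 and 2.2 CPM in the 45-day runs and 12.2, 16.9, 11.9, 15.7 and 12.9 CPM in the 12-month runs. The runs did not overlap, and the fold of 5.61 (4.15 to 7.71) was the largest among all genes called higher. Nr4a1, an orphan nuclear receptor (chr15:101254269-101274795, plus strand), was at 37.7, 40.6, 42.3, 41.9 and 34.7 CPM and then at 132, 145, 153, 136 and 137 CPM, 3.58-fold higher (3.31 to 3.87). Egr1, a zinc finger factor used as a marker of recent neuronal activity, was at 134, 135, 133, 131 and 129 CPM and then at 424, 472, 468, 452 and 453 CPM, 3.42-fold higher (3.28 to 3.57). The AP-1 members Junb (3.29-fold), Fosb (3.12-fold), Fos (2.52-fold) and Fosl2 (2.1-fold) were called as well. Jun was not, at 1.02-fold (0.935 to 1.1), or 0.974 with library totals.

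Outside the transcription factors, Arc, a synaptic protein that regulates glutamate receptor uptake (chr15:74669083-74672570, minus strand), was at 80.5, 77.4, 74.4, 73.4 and 75.2 CPM at 45 days. In the 12-month runs Arc was at 183, 183, 174, 195 and 176 CPM, above every 45-day run (2.39-fold, 2.25 to 2.54). Sik1, a salt-inducible kinase, was 1.89-fold higher and Dusp6, a phosphatase of ERK, 1.64-fold (1.51 to 1.78). The Dusp6 call ended in 5 of the 10 cases in which a single run was left out. The other 7 listed genes at 5 CPM were not called, among them Npas4 at 1.39-fold (1.19 to 1.61), Dusp1 at 1.58-fold and Ier2 at 0.735 of its 45-day level (0.558 to 0.964).

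Clock genes were higher in part. All 19 listed genes reached 5 CPM, and 6 were called higher and 0 lower, against 2.15% and 3.31% over all genes. Of the 19, 18 had a fold above 1, against 6379 of 12301 over all genes, with a median log2 fold of 0.44. The called genes were on the repressive side or output of the loop. Per1 (chr11:69095217-69109960, plus strand) was at 73.6, 70.2, 75.7, 69.4 and 65.7 CPM at 45 days and 161, 169, 166, 170 and 164 CPM at 12 months, without overlap (2.34-fold, 2.2 to 2.49). Ciart, a repressor of CLOCK and BMAL1, was 2.29-fold higher (1.89 to 2.78), Per2 2.24-fold (2.01 to 2.49), and the E-box-binding repressors Bhlhe40 and Bhlhe41 2.13-fold and 1.81-fold. Hlf, a PAR bZIP factor, was 1.74-fold higher, but not called once the length and GC trend was removed (1.56-fold). The activators Clock and Arntl, which encodes BMAL1, were at 1.28-fold (1.21 to 1.35) and 1.11-fold (1.02 to 1.2) and were not called, nor were Nr1d1 at 1.26-fold and Dbp at 1.11-fold.

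The 3 upstream sequences printed here were chosen because their genes belong to these sets of higher genes and hold a motif that is known in such genes. They are the 250 bases before a RefSeq start (GRCm38.p6), read 5′ to 3′ on the gene's strand, with the motif in capitals. Egr2 (chr10:67537619-67537868, plus strand) holds a CArG box, the sequence bound by serum response factor. Per1 (chr11:69098699-69098948, plus strand) holds 1 E-box CACGTG, and Ciart (chr3:95882229-95882478, minus strand) holds 3.
Egr2: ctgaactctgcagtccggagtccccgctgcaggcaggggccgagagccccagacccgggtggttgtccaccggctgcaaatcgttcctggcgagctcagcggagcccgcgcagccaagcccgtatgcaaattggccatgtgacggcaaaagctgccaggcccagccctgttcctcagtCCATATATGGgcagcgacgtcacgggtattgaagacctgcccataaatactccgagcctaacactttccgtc
Per1: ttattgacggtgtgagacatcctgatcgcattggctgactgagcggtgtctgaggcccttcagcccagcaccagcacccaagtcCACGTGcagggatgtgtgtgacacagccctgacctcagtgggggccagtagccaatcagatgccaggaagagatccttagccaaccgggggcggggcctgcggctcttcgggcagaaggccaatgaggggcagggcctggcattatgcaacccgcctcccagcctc
Ciart: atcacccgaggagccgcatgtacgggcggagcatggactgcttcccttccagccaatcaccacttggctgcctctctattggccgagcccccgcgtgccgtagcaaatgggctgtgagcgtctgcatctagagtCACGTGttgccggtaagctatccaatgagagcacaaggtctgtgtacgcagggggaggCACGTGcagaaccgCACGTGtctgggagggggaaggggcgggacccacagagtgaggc

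Windows were matched for 4 of the 6 called clock genes, and 3 of their 5 windows (60.0%) held CACGTG, from Per1, Ciart and Bhlhe41. On either strand, 6.76% of the 22377 windows of all genes held it. Windows were matched for 10 of the 14 called immediate early genes. The CArG box, searched for after the data were seen, was found in 1 of these 10 genes, Egr2, whose windows overlap in part and share a site. Over all windows 1.36% held it. The cyclic AMP response element TGACGTCA was in 0 of their 14 windows and in 1.96% of all. Such a match describes letters in these windows only.

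Marker genes of the striatum, the forebrain nucleus that receives dopamine, were also higher at 12 months. All 16 listed genes had a fold above 1, against 6379 of 12301 over all genes, and 6 were called higher and 0 lower. Their summed level was 1420 CPM at 45 days, 2090 CPM at 12 months and 1390 CPM at 24 months. The dopamine receptor Drd1 (chr13:54051183-54055705, minus strand) was at 34.0, 35.2, 34.1, 35.8 and 38.0 CPM and then at 93.5, 93.5, 83.4, 79.9 and 86.3 CPM, 2.46-fold higher (2.26 to 2.69) with no overlap of runs. Its level at 24 months was 36.3 CPM, below the 12-month level again. Drd2 was 2.25-fold higher (2.04 to 2.48), the orphan receptor Gpr6 2.02-fold, and Foxp1 and Pde10a 1.81-fold and 1.59-fold. The last pair were not called with the length and GC trend removed (1.58-fold and 1.5-fold). The abundant striatal markers Penk and Ppp1r1b were at 1.4-fold and 1.21-fold and were not called. Of 18 markers of cortex and hippocampus, 2 were called higher, Bcl11b (1.84-fold) and Mef2c (1.6-fold, and 1.29-fold with the trend removed), and 15 had a fold above 1. The summed striatal level was highest in the same wild-type library as the summed level of the immediate early genes, and its part in that result was not tested.

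Transcripts of the olfactory bulb were mixed. Of 10 listed genes at 5 CPM, 3 were higher and 0 lower: Cdhr1, a cadherin of mitral cells, at 2.61-fold (2.15 to 3.2), Dlx1 at 1.85-fold and Synpr at 1.71-fold (1.35-fold with the trend removed). Calb2 was at 0.645 of its 45-day level and was not called. Among 24 genes of immature neurons, 20 reached 5 CPM, and 4 were higher and 3 lower. The higher were interneuron transcription factors and a transcript of the Dlx locus, Sp8, Sp9 (2.49-fold), Dlx1 and Dlx6os1 (1.81-fold). The lower were Nrep (0.432), Marcksl1 (0.584) and the neuronal tubulin Tubb3 (0.617). Of these 7, Dlx6os1, Marcksl1 and Tubb3 were not called with the trend removed. Dcx, a microtubule protein of migrating neurons, was at 46.6 and 56.6 CPM and was not called, and of 20 cell proliferation genes 6 reached 5 CPM and 0 were called.

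Myelin genes formed the most numerous lower set. All 24 listed genes of myelin and mature oligodendrocytes reached 5 CPM, and 16 were called lower and 1 higher, against 3.31% and 2.15% over all genes. Their median log2 fold was −0.73. Their summed level was 21000 CPM at 45 days, 13500 CPM at 12 months and 17900 CPM at 24 months. With the length and GC trend removed 11 were lower, and Mobp, Trf, Cnp, Mag and Gjb1 were no longer called.

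Proteins of the myelin sheath itself were lower by moderate amounts. Mbp was at 5960, 6010, 6080, 5910 and 5710 CPM at 45 days and 4000, 3860, 3940, 3890 and 3810 CPM at 12 months. The runs did not overlap, and the 12-month level was 0.658 of the 45-day level (0.652 to 0.664). That is close to the boundary of a call, and the call ended without either of 2 runs. Cldn11, the claudin that seals the layers of myelin (chr3:31149920-31164324, plus strand), was at 335, 324, 343, 339 and 332 CPM and then at 117, 128, 120, 104 and 115 CPM. That is 0.348 of the 45-day level (0.332 to 0.365), and the level was 113 CPM at 24 months. Mal, of compact myelin, was at 0.448, Mog, on the outer surface of the sheath, at 0.49, and Mag, which faces the axon, at 0.58.

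Enzymes of oligodendrocytes were lower too. The protease Klk6 was at 0.271 of the 45-day level (0.212 to 0.344), Fa2h, which hydroxylates the fatty acids of myelin lipids, at 0.479, and Ugt8a, which makes galactosylceramide, at 0.552. The exception was Il33, a cytokine kept in nuclei of mature oligodendrocytes and astrocytes, which was 2.66-fold higher (2.42 to 2.92). Its runs were at 23.6, 32.8, 32.6, 32.7 and 26.2 CPM at 45 days and 74.9, 72.7, 77.4, 77.9 and 85.5 CPM at 12 months. Apod (1.46-fold) and Ermn (1.05-fold) were not called.

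Earlier stages of the lineage were lower only in part. Of 17 precursor genes at 5 CPM, 2 were lower and 0 higher. Gpr17, a receptor of precursors committed to differentiate, was at 104, 107, 104, 116 and 97.6 CPM and then 39.6, 37.1, 44.0, 48.9 and 43.0 CPM, 0.403 of the 45-day level (0.372 to 0.438). Neu4, a sialidase, was at 0.509. The broad precursor genes Cspg5 (1.1-fold) and Ptprz1 (1.05-fold) were not called. 9630013A20Rik, a long non-coding RNA of newly formed oligodendrocytes singled out after its values were seen, was at 7.93 CPM at 45 days, 1.23 CPM at 12 months and 0.304 CPM at 24 months. Its 12-month level was 0.155 of the 45-day level (0.0954 to 0.24). Of the 20 genes of cholesterol synthesis, which feeds myelin growth, 0 were called.

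**Figure D2:**
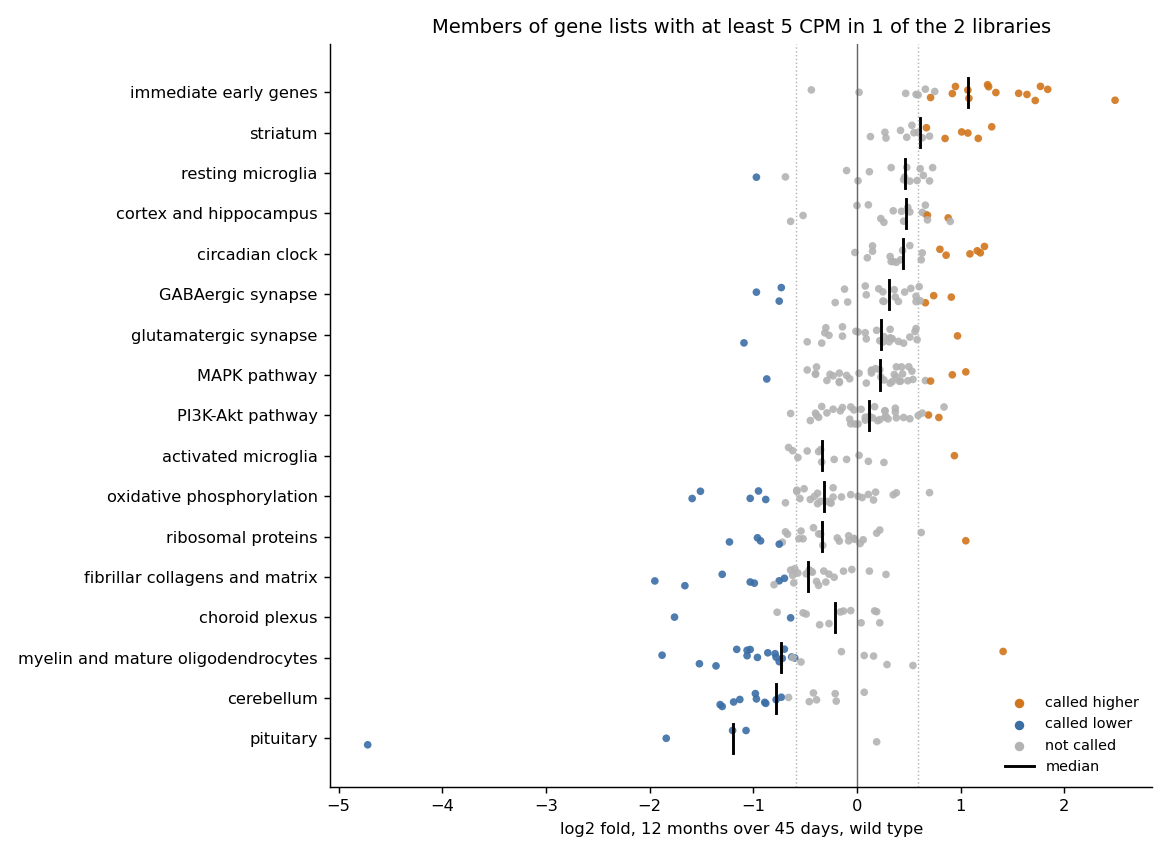
Log2 fold of 12 months over 45 days in wild type for the members of 17 gene lists with at least 5 CPM; each point is a gene, orange called higher, blue called lower, grey not called, black bars are list medians and dotted lines mark 1.5-fold. Immediate early genes (median 1.07) lie to the right, and myelin (−0.73), cerebellum (−0.78) and pituitary (−1.2) lie to the left.

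Cerebellar markers were lower at 12 months. Of 17 measured at 5 CPM, 10 were lower and 0 higher, against 3.31% and 2.15% over all genes. The median log2 fold was −0.78, and the summed level was 3400 CPM at 45 days, 2440 CPM at 12 months and 2260 CPM at 24 months. Genes of granule cells were among the lowest: Fat2, a large cadherin, at 0.4 (0.378 to 0.424), Cbln1, a synapse organiser, at 0.405 (0.375 to 0.437) and Cbln3 at 0.507. Fat2 was at 221, 215, 198, 218 and 212 CPM in the 45-day runs and 93.0, 85.2, 79.4, 85.7 and 82.5 CPM in the 12-month runs, which did not overlap. Gabra6, a GABA receptor subunit of granule cells, was at 0.603 (0.572 to 0.636). Purkinje cell genes were lower in Pcp2 (0.458), Car8 (0.584) and Ppp1r17 (0.54), but not called in Calb1 (1.05-fold) or Itpr1 (0.864). Striatal markers were higher and cerebellar markers lower in the same 12-month library, and how much each brain region contributed to either library was not tested.

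Of 12 markers of thalamus and brainstem at 5 CPM, 4 were lower and 1 higher, 6 lay on each side of 1, the median log2 fold was −0.04 and the summed level was 584 CPM at 45 days and 594 CPM at 12 months. Of 24 genes of monoamines and acetylcholine, 3 were lower and 2 higher, with a median of −0.05. The lists as a whole thus differed little, while some transporters and enzymes of serotonin, noradrenaline and glycine neurons were lower by large factors from low levels. The serotonin transporter Slc6a4 (chr11:76998603-77032340, plus strand) was at 9.74, 7.74, 6.37, 10.2 and 7.91 CPM and then at 1.49, 1.19, 1.42, 2.09 and 1.24 CPM, 0.177 of the 45-day level (0.114 to 0.264). The 24-month level was 4.65 CPM, between the others. Tph2, which makes serotonin, was at 0.274 (0.218 to 0.343), the noradrenaline transporter Slc6a2 at 0.0959 (0.0448 to 0.183) and the glycine transporter Slc6a5 at 0.295 (0.229 to 0.377). In contrast Th at 0.943, Slc18a2 at 0.781 and Maob at 1.36-fold were not called. In a list of serotonin and noradrenaline neurons drawn up after the data were seen, 3 of 7 genes at 5 CPM were lower and 0 higher. Tcf7l2 of the thalamus was 1.7-fold higher, but not called with the trend removed.

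The extracellular matrix is among the subjects named in the series title. Of 28 fibrillar collagen and matrix genes at 5 CPM, 7 were lower and 0 higher, against 3.31% and 2.15% over all genes. In 26 the fold was below 1, against 5922 of 12301 over all genes, and the median log2 fold was −0.47. Col1a1, a chain of type I collagen (chr11:94936224-94953042, plus strand), was at 37.4, 37.6, 32.4, 38.8 and 36.3 CPM and then at 8.21, 11.3, 10.2, 8.1 and 9.7 CPM. The runs did not overlap, and the 12-month level was 0.258 of the 45-day level (0.218 to 0.304). Its partner Col1a2 was at 0.317 (0.266 to 0.376), Col3a1 at 0.405, Col5a2 at 0.49, Col18a1 at 0.504 and Sparc, a matrix protein, at 0.614. Basement membrane collagens Col4a1 and Col4a2 were at 0.674 and 0.734 and were not called. Of 17 genes of the brain's own matrix at 5 CPM, only Tnc, tenascin C, was lower (0.398, 0.313 to 0.503).

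Markers of vessels and fibroblasts had few calls. Of 14 mural cell and fibroblast genes at 5 CPM, 8 had a fold below 1 and 1 was called, Ptgds at 0.36 (0.347 to 0.374). Their median log2 fold was only −0.12, or −0.02 once the trend was taken out. Their summed level, Ptgds included, was 941 CPM at 45 days and 619 CPM at 12 months. The part of Ptgds in the lower sum was not tested. Of 18 endothelial genes 13 had a fold below 1, with a median log2 fold of −0.25, and 1 was called lower, Cldn5, at 0.512, and 0.662 with the trend removed. The part of these cells in the collagen result was not tested.

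Hormone genes of the pituitary were lower at 12 months. Of 5 pituitary genes at 5 CPM 4 were lower. Growth hormone, Gh (chr11:106300271-106301865, minus strand), was at 641, 616, 596, 642 and 582 CPM and then at 182, 168, 166, 177 and 167 CPM, 0.279 of the 45-day level (0.269 to 0.29). Pomc, the precursor of ACTH, was at 10.6, 9.61, 10.2, 12.3 and 13.0 CPM and then at 0.746, 0.297, 0.567, 0.522 and 0.0 CPM, 0.038 of it (0.0162 to 0.0762). At 24 months the same genes were above both other ages, at 1710 CPM for Gh and 36.2 CPM for Pomc. Prl was at 0.435 and Cga at 0.475. The labels do not say whether pituitary tissue was left on the brains.

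Albumin, Alb, a protein of hepatocytes (chr5:90460897-90476602, plus strand), was the lowest call of all. It was at 31.2, 24.3, 21.9, 22.5 and 24.6 CPM in the 45-day runs and 0.249, 1.19, 0.0, 0.261 and 0.249 CPM in the 12-month runs, 0.0149 of the 45-day level (0.00595 to 0.0309). In a list of 15 liver genes drawn up after the data were seen, the summed level was 51.7 CPM at 45 days, 3.94 CPM at 12 months and 9.48 CPM at 24 months. Serpina3k, with 3 counts at 12 months, was at 0.0318 of its 45-day level (0.00645 to 0.0954). The 45-day library was the highest of the 3 wild-type libraries in this sum. The muscle genes Mybpc3 and Tnnc1 and the endosomal GTPase Rab7b were also among the 10 lowest, at 0.133, 0.249 and 0.151, all of them below 2 CPM at 12 months. Ttr, the thyroid hormone carrier of the choroid plexus, was at 0.295 (605 and 179 CPM), and the ependymal factor Foxj1 at 0.407. Of 14 choroid plexus genes at 5 CPM 2 were lower, Ttr and Enpp2, while Kl was at 0.832 and was not called. Of 10 blood genes 4 had no count in either library and 1 reached 5 CPM, Alas2, which was not called (0.556).

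Inflammation is another subject of the title, and immune genes showed few calls. Complement component C4b (chr17:34728380-34743882, minus strand) was at 19.0, 19.8, 19.4, 15.9 and 20.4 CPM at 45 days and 41.8, 37.4, 39.7, 37.4 and 37.5 CPM at 12 months. It was 2.05-fold higher (1.81 to 2.33) without overlap of runs, and the 24-month level of 80.8 CPM was higher again. Casp1, the inflammasome protease, was 2.48-fold higher from 2.9 CPM, and Clu was at 0.617, or 0.692 with the trend removed. Of 15 resting microglia genes at 5 CPM, 12 had a fold above 1 and 1 was called, Fcrls, lower at 0.509. Of 13 activated microglia genes 9 had a fold below 1, with a median log2 fold of −0.34, or 0.01 with the trend removed. Only 1 was called, Lpl, higher at 1.92-fold (1.63-fold with the trend removed, not called). Antigen presentation (9 genes at 5 CPM) and the interferon response (10 genes) had 0 calls, with B2m at 1.41-fold and Stat2 at 0.81.

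Astrocyte genes differed little. Of 16 listed, 0 were called, with Slc1a2 at 1.4-fold and Aldoc at 0.681. Of 10 reactive astrocyte genes at 5 CPM, Vim (0.552) and Emp1 (0.468) were lower. Gfap, the filament protein of reactive astrocytes, was at 274 and 189 CPM (0.69, interval 0.662 to 0.72), and was not called.

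Synaptic genes had few calls, and their medians depended on the trend with length and GC. The median log2 fold was 0.23 for the glutamatergic list, 0.31 for the GABAergic list and 0.21 for voltage-gated channels, and 0.12, 0.2 and 0.05 with the trend removed. Of 28 genes of the glutamatergic synapse, 19 had a fold above 1, with Grm5, a metabotropic receptor of the forebrain, higher at 1.96-fold (1.88 to 2.05) and Grm4, abundant in cerebellar granule cells, lower at 0.47 (0.438 to 0.505). Of 24 genes of the GABAergic synapse, Gabra2 (1.88-fold), Gabrb1 (1.67-fold) and Gad1 (1.58-fold) were higher and Pvalb (0.512), Gabrd (0.595) and Gabra6 were lower. With the trend removed, of these 6 only Gabra6 and Pvalb were called. The 22 voltage-gated channels had 0 calls, with Kcna2 at 1.15-fold.

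The signalling pathways of the title gave scattered calls. Of 39 MAPK genes at 5 CPM, 3 were higher and 1 lower. The higher were the feedback inhibitors Dusp4 (2.07-fold, 1.64 to 2.62), Spry4 (1.9-fold, 1.67 to 2.16) and Dusp6, and the lower was the kinase Rps6ka1 (0.547, and 0.62 with the trend removed). The receptor Ntrk2 was at 1.06-fold and was not called. Of 39 PI3K-Akt genes 2 were higher and 0 lower, among them Foxo1, a transcription factor that Akt inhibits, at 1.73-fold (1.58 to 1.91). The kinase Gsk3b was at 1.36-fold and was not called.

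Genes of energy and protein synthesis leaned lower. Of 30 oxidative phosphorylation genes, 22 had a fold below 1 and 5 were lower, among them Ndufs6 (0.331), Uqcrq (0.351) and Cox4i1 (0.517, and 0.657 with the trend removed). Of 26 ribosomal protein genes at 5 CPM, 4 were lower, such as Rplp0 at 0.514, and Rpl19 was higher at 2.06-fold. With the trend removed 5 ribosomal protein genes were lower and 2 higher. Ribosomal protein genes have many near-identical copies, so counts of single members are uncertain. Of 21 genes for repair of transcribed DNA 0 were called, with Ddb1 at 1.09-fold and Rad23b at 1.31-fold. Among 14 genes of the p53 response, Gadd45a (2.09-fold) and Plk2 (1.75-fold) were higher and Bax (0.437, and 0.555 with the trend removed) was lower. Heat shock and endoplasmic reticulum stress genes had 0 calls of 17, with Hspa8 at 0.718. Of 14 glucocorticoid response genes 1 was called, Per1, and Sgk1 was at 1.55-fold. Pmch, the melanin-concentrating hormone of the hypothalamus, was 2.01-fold higher. Pcdhb3 was the only higher call of 13 clustered protocadherins (2.19-fold), genes that are close paralogs. Of 12 testis genes 0 reached 5 CPM.

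The libraries labelled Csa-/- at the same ages share no library with the wild-type pair. There 1793 of 12563 genes were called (14.3%), 784 higher (6.24%) and 1009 lower (8.03%). Of the 264 genes higher in wild type, 259 reached 5 CPM in that pair, and 22 were higher there as well (8.49%), against 6.0% of all 12159 genes at 5 CPM in both pairs. These 22 were 2.81% of that pair's higher calls. Another 26 of the 259 were lower there (10.0%). Of the 407 genes lower in wild type, 390 reached 5 CPM, 38 were lower in that pair too (9.74%, against 7.94% of all), and 25 were higher (6.41%). These 38 were 3.77% of its lower calls. Most wild-type calls were therefore not called in the other pair, and the median log2 fold there was −0.07 for the higher and −0.1 for the lower genes. Across the 12159 genes the Pearson correlation of the log2 folds was −0.076, a description in which genes are not independent replicates.

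**Figure D3:**
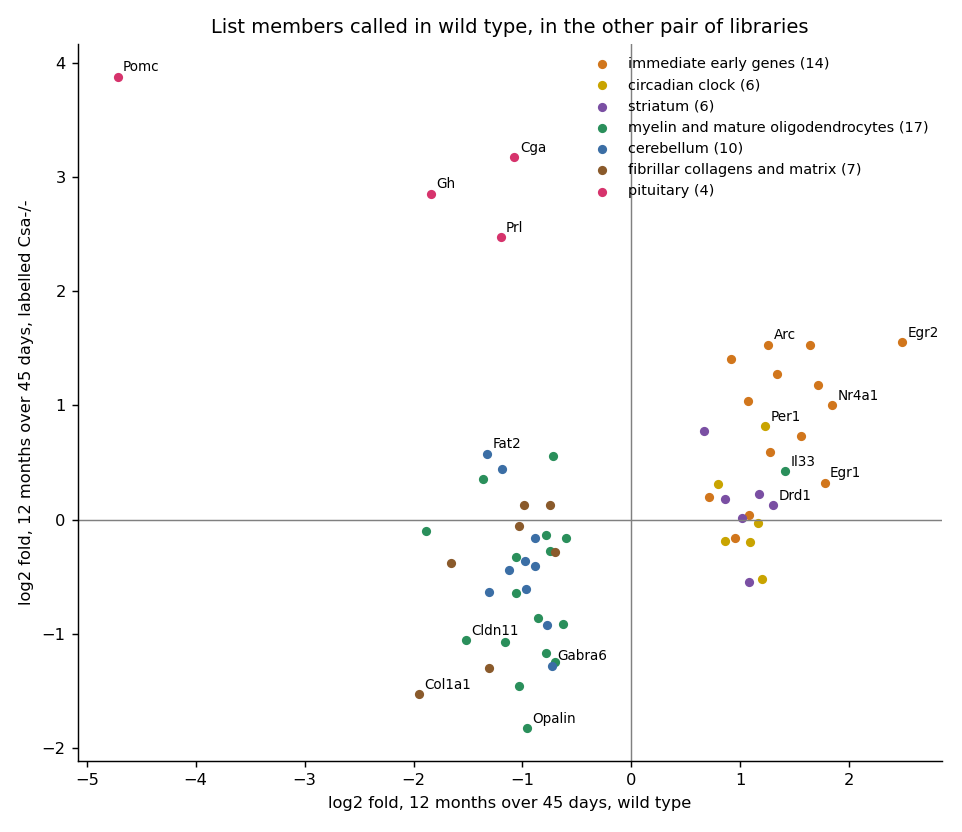
Log2 fold of 12 months over 45 days for the list members called in wild type (x axis) and their log2 fold in the libraries labelled Csa-/- (y axis); each point is a gene, colours are gene lists and the number of points is given in the key. Most immediate early genes lie above 0 on both axes, the 4 pituitary genes lie at upper left, and clock and striatal genes lie on both sides of 0 on the y axis.

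Gene sets differed in how far they recurred in the pair labelled Csa-/-, where 6.24% of all genes were called higher and 8.03% lower. Of 30 oxidative phosphorylation genes at 5 CPM there, 16 were lower and 0 higher, with a median log2 fold of −0.71. Of 27 ribosomal protein genes 8 were lower and 0 higher, with a median of −0.48. Of 23 immediate early genes at 5 CPM in the other pair 9 were higher, with a median log2 fold of 0.59. Egr2 was 2.93-fold higher there, Fosb and Arc 2.89-fold, Fos 2.42-fold and Nr4a1 2.0-fold, while Egr1 was at 1.25-fold. Of 24 myelin genes 9 were lower, with a median of −0.31, among them Cldn11 (0.481), Mog (0.365) and Opalin (0.282). Of 19 clock genes only Per1 was higher (1.76-fold), and the median was 0.07. Drd1 (1.09-fold) and Drd2 (1.17-fold) were not called. Of 17 cerebellar genes 3 were lower and 1 higher, and of 27 matrix genes 2 were lower, Col1a1 (0.347) and Col3a1 (0.406), and 2 higher. All 7 pituitary genes at 5 CPM were higher in that pair, with a median log2 fold of 3.17. Whether the genotypes differ in these changes was not tested, since each has 1 library per age.

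A fit over both genotypes, with genotype as a term, gives the only test of 12 months against 45 days. Its 2 libraries per age are 1 of each genotype, so they are not replicates of a group. The fit assumes the same age difference and the same spread in both genotypes. That assumption was not tested, and the log2 folds of the 2 genotypes had a Pearson correlation of −0.076 across genes. The fit includes the wild-type pair and so is no independent check of it. By edgeR's quasi-likelihood test with Benjamini-Hochberg adjustment, 10 of 16560 genes passed an adjusted p of 0.05 (0.0604%), 6 higher (0.0362%) and 4 lower (0.0242%), and 402 had an unadjusted p under 0.05. In edgeR's fit Abca8a rose by a log2 fold of 2.15 ± 0.39 (SE, adjusted p = 0.00247), C4b by 1.93 ± 0.40 (adjusted p = 0.017) and Egr2 by 2.07 ± 0.45 (adjusted p = 0.0299). In the same edgeR fit 9630013A20Rik fell by 3.53 ± 0.56 (adjusted p = 0.000305) and Alb by 3.29 ± 0.61 (adjusted p = 0.00247). Each of these 5 was also called in wild type, and each differed in the same direction in both genotypes. The fit looks for an age difference shared by both genotypes, so that agreement is favoured by the selection and adds no support. The other 5 were below 5 CPM in the wild-type pair: Gpnmb, Hoxb8 and S100a5, which rose, and Cyp3a11 and S100a8, which fell. Hoxb8 was at 0.19 and 0.799 CPM in wild type against 0.0 and 8.79 CPM in the other pair. Col1a1, at a log2 fold of −1.73 ± 0.40, did not pass (edgeR adjusted p = 0.0573), and no myelin or clock gene passed.

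These calls are few and depend on the libraries. Without the library labelled Csa-/- at 12 months 2 genes passed, and without that at 45 days 3. Leaving out the library of wild type at 24 months or that labelled Csa-/- at 24 months gave 25 each. Without wild type at 45 days or at 12 months 9 passed each time, of which 4 and 2 were among the 10. With the length and GC trend removed 0 genes passed in edgeR, and 439 had an unadjusted p under 0.05. The prior degrees of freedom, the weight given to the spread pooled over genes, were 10.6 in that fit against 77.2 in the main fit. Their part in the loss of calls was not tested. DESeq2 passed 8 genes and limma-voom 6.

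**Figure D4:**
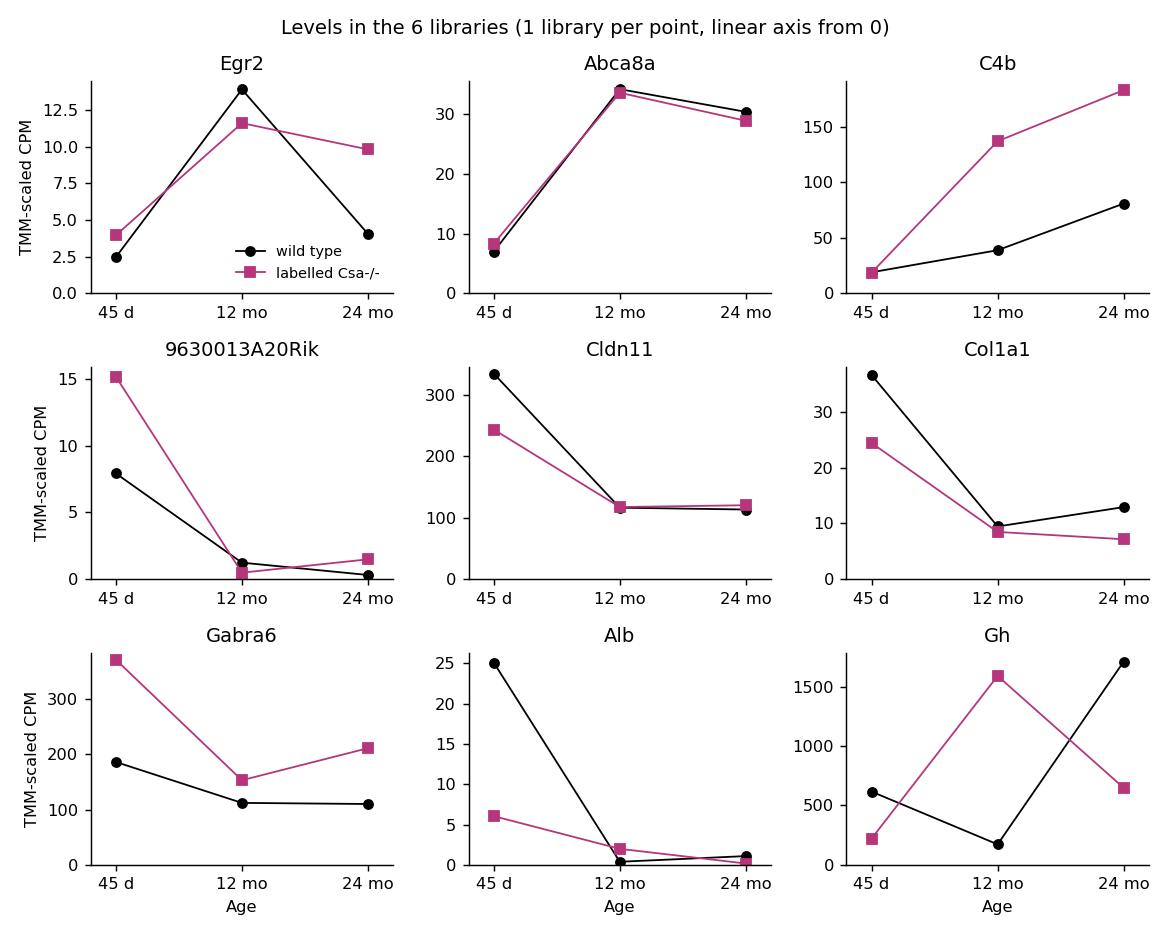
Levels (TMM-scaled CPM, linear axes from 0) of 9 genes in the 6 libraries by age at 45 days, 12 months and 24 months; black circles are wild type, magenta squares the libraries labelled Csa-/-, and each point is 1 library. Abca8a is near 30 CPM in all 4 libraries at 12 and 24 months against 6.98 and 8.32 CPM at 45 days, while Gh goes from 616 to 172 CPM in wild type and from 221 to 1590 CPM in the other genotype.

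Levels at 24 months are given beside those at 45 days and 12 months as a description, with no fold or call. Abca8a (6.98, 34.2 and 30.4 CPM) and Cldn11 (334, 116 and 113 CPM) stood at 24 months near their 12-month levels. Col1a1 (36.6, 9.43 and 12.9 CPM) and Gabra6 (186, 112 and 110 CPM) did as well. Egr2 (2.47, 13.9 and 4.05 CPM), Drd1 (35.5, 87.3 and 36.3 CPM) and Egr1 (132, 453 and 221 CPM) were nearer to their 45-day levels. Mbp (5930, 3900 and 6990 CPM) and Gh (616, 172 and 1710 CPM) were above both.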

How the data were processed

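The deposited file gives unnormalised read counts of 25239 genes, and each of its 30 columns was matched to 1 sample through the labels. The authors made these counts with tools that, per the submitters' processing notes, included HISAT2 2.2.1, Subread 2.0.1, Trimmomatic 0.3.9 and SAMtools, with the build mm10. Their settings and the annotation were not given in the sources used here. No count was found for 3431 genes, and mitochondrial genes were not analysed here.

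Runs were summed because their chi-square over its degrees of freedom had a median under 2 in genes averaging 10 counts or more. Libraries were scaled with TMM (edgeR 4.0.16, R 4.3.3, factors 0.955 to 1.03). Folds carry exact 95% Clopper-Pearson intervals (SciPy 1.17.1), and 3 counts correspond to 0.142 CPM at 45 days and 0.16 CPM at 12 months. On simulated data the interval covered a true fold of 1.5 in 95.4% of 12301 genes, and 90.0% of 2-fold changes were called. The edgeR quasi-likelihood fit had 2 residual degrees of freedom and a common biological coefficient of variation of 0.278, with 2 libraries per age. Its SE is the log2 fold change divided by the root of F. In simulated data of 16560 genes for that fit 7% of 2-fold and 68% of 4-fold changes passed.

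The comparison, the 43 gene lists and the rules were chosen with earlier results of these data known. Another 4 lists and the CArG box were added after seeing the data. Named genes were the 10 largest calls in each direction without identifier-only models and pseudogenes, up to 4 called members of each list, and up to 2 abundant members of lists with no call; other genes named were chosen after their values were seen. Coordinates are from GENCODE M21 (24362 symbols matched). Promoters are from RefSeq GRCm38.p6 (18648 genes matched). Alternatives were DESeq2 1.42.0, limma-voom (limma 3.58.1), other scalings, CPM minimums and fold thresholds, a spline trend (5 degrees of freedom) along exonic length and GC content, runs as replicates, and each run or library left out. Values of some genes that the naming rule allows are not reported here.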

Additional observations from a re-analysis of the deposited data

Results flagged for a closer look

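Among the named genes, 13 were called in opposite directions in the wild-type pair and in the pair labelled Csa-/-, with 1 library per age in each. Over all genes, opposite calls were made for 26 of 259 genes higher in wild type (10.0%) and 25 of 390 lower (6.41%). Calls in the same direction were made for 22 (8.49%) and 38 (9.74%). The difference between the pairs was not tested for any of the 13. Genes of the pituitary were lower at 12 months in wild type and higher in the other pair: Pomc at 0.038 against 14.7, Gh at 0.279 against 7.22, Prl at 0.435 against 5.55 and Cga at 0.475 against 9.0, each as the fold of 12 months over 45 days. Their levels in wild type at 24 months were above both younger ages.

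Some genes of brainstem neurons were split in the same way. The noradrenaline transporter Slc6a2 was at 0.0959 against 2.81, the glycine transporter Slc6a5 at 0.295 against 4.05 and the glycine receptor subunit Glra1 at 0.55 against 2.78. Their lists as a whole were not: of 14 thalamus and brainstem genes at 5 CPM in the pair labelled Csa-/-, 3 were higher and 0 lower. Of 8 serotonin and noradrenaline neuron genes 1 was higher and 0 lower there. The ependymal factor Foxj1 was at 0.407 against 2.04, and Vim, a filament protein of reactive astrocytes, at 0.552 against 1.93. The reverse order held for Pmch of the hypothalamus, at 2.01 against 0.494, and for the synaptic vesicle gene Synpr, at 1.71 against 0.574. Rpl19, at 2.06 against 0.382, has near-identical copies elsewhere in the genome, so its count is uncertain. The microRNA gene Mir6236 was at 0.192 against 6.34.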

How the results depend on the processing

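None of the 93 called genes named by rule changed direction under the scalings, the trend removal or any left-out run. This says little, since a call lies beyond 1.5-fold and the runs are repeats of the same library. The scalings shifted the median log2 fold by −0.06 (library totals) and 0.013 (DESeq2 size factors). Among uncalled genes, Jun was at 0.974 with library totals, and with the trend removed Calb1 (0.829), Dcx (0.974), Ddx3y (0.975), Ermn (0.844) and Ptprz1 (0.91) were below 1 and Th (1.08) above it. List medians near 0 also changed sign, and that of activated microglia went from −0.34 to 0.01 with the trend removed. The 671 calls in wild type became 446 (191 higher, 255 lower) with the length and GC trend removed and 104 (29 higher, 75 lower) with intervals beyond 2-fold. Without any CPM minimum 934 were called, at 10 CPM 583, with DESeq2 size factors 674 and with library totals 729. Leaving out 1 run gave 612 to 686 calls, 239 to 276 higher and 373 to 422 lower. Of those 93, 79 were called with the trend removed, 89 under library totals, 92 under DESeq2 factors and 85 whichever run was left out. Besides those in the report, calls ended, among others, under library totals for Dlx1, Gad1, Mef2c and Tcf7l2 and without some run for Dlx1, Emp1, Gadd45a, Gpr6, Serpina3k, Tcf7l2 and Tnnc1. The causes were not tested.

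With the 5 runs per age as replicates, edgeR called 532 genes without and 558 with a replicate block. The correlations of deviations between runs of the same number were 0.031 to 0.089, small but all above 0. What runs of the same number share was not tested. In the pair labelled Csa-/- 863 genes instead of 1793 were called with the trend removed. The 10 genes that passed over both genotypes became 6 at a mean of at least 5 CPM, 6 with limma-voom, 8 with DESeq2, 0 with the trend removed and 2 to 25 when 1 library was left out. Counting error limits genes near 5 CPM, and differences between animals are not measured.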
